A study of Rattus norvegicus with 9 samples.

Results

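Cxcl12, Cxcr4, Kitlg, Lepr, Il7, Il7r and Csf1, a set of marrow niche ligands and receptors, were followed through stromal, endothelial and blood cells of the healing rat tibia. The members were taken by symbol, and all 7 were found among the 41801 genes listed in the single-cell count tables. Cells came from a 3-mm circular osteotomy of the proximal tibia of Sprague-Dawley rats aged 6 to 8 weeks, and every animal, controls included, also carried a 4-mm full-thickness skin wound on the dorsum of a hind foot. In the tibial osteotomy (TO) group the bone was left without shock waves. In the TOE group the osteotomy site received radial extracorporeal shock waves (rESWT) on days 2 and 4, and tissue was taken 4 or 24 h after a session. The 8 libraries analysed were TO 2d 0h (taken on day 2 before any session), TO 2d 4h, TO 4d 4h and TO 4d 24h, and TOE 2d 4h, TOE 2d 24h, TOE 4d 4h and TOE 4d 24h, where 2d and 4d give the day and the last term the hours. TO 2d 24h was not analysed here. The design gives 9 rats for 9 samples without saying which rat entered which. Each condition was 1 library, and TOE and TO were compared without a test.

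CXCL12 is the chemokine by which marrow stroma retains haematopoietic stem cells, B-cell precursors and neutrophils, all of which carry its receptor CXCR4. The same perivascular stromal cells, known as CXCL12-abundant reticular cells and often recognised by the leptin receptor LEPR, also make KIT ligand (Kitlg), which maintains stem and mast cells, and interleukin 7 (Il7), which drives the growth of early B cells through Il7r. CSF1, made by stroma and other cells, supports monocytes, macrophages and osteoclasts.

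After filtering and removal of doublets, 110428 of 116711 barcodes were kept, 54863 from TO and 55565 from TOE libraries. Libraries held 95954800 to 144146202 UMIs in all and a median of 4522 to 5668 UMIs per cell. The cells formed 29 clusters in 10 classes named from marker genes, and 5 clusters with 8109 cells (7.34%) kept no name. Among the naming markers, the collagen gene Col1a1 was at 43864 CPM (UMIs of the gene scaled to a fixed total) in mesenchymal-like cells against 202 CPM in all other classes. The endothelial cadherin Cdh5 was at 564 against 0.461 CPM, and the B-cell receptor component Cd79a at 1812 against 99.8 CPM. These genes entered the naming, so their levels describe the classes and do not test the labels. Of the markers used for other classes, Ltf was near 0 in neutrophil-like cells (0.243 CPM) and F13a1 no higher in monocyte-like than in other cells (20.6 against 20.4 CPM). Any pair of libraries shared 40 to 110 barcodes (median 57 over 28 pairs). TOE 4d 24h stood apart from the other 7 libraries in several members across unrelated cell classes, so values are given with and without it where they rest on it. CPM were formed from the UMIs summed over all cells of a class in a library, and intervals are exact 95% intervals that cover counting error only.

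The promoters of the ligand Cxcl12 and its receptor Cxcr4 are shown because the values of these genes carry most of the differences described below. Both are the 250 bases before the transcription start in RefSeq's rat assembly GRCr8, which is not the build of the count tables. Cxcl12 lies on the plus strand (chr4:152060531-152060780) and Cxcr4 on the minus strand (chr13:42634289-42634538), each printed 5′ to 3′ in the direction of the gene. Capitals mark the GC box GGGCGG on either strand and, in Cxcr4, the TATA box TATAAA, whose matches on both strands overlap.
Cxcl12: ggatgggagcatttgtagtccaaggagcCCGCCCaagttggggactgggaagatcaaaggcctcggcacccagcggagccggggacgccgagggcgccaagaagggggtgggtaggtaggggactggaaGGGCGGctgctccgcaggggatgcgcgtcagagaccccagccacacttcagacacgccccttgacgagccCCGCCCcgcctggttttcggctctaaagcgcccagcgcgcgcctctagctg
Cxcr4: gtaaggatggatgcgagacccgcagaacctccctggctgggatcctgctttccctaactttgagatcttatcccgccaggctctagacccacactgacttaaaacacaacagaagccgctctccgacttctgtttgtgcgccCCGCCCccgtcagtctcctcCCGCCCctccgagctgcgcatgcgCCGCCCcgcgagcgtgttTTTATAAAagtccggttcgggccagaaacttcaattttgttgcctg
A promoter entry was matched for 5 of the 7 members, and Il7 and Csf1 had none. The GC box occurred 3 times in Cxcl12, 3 times in Cxcr4 and 3 times in Kitlg, and in 30.5% of 33469 promoter windows of the same length. The TATA box was found in Cxcr4 and Kitlg and in 12.9% of windows. The hypoxia-response core ACGTG (16.6% of windows) and the AP-1 motif TGANTCA (6.34%) had no match in the 5 windows. A match is a description of these letters and not a sign of binding.

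Cxcl12 was a gene of stroma and endothelium. Of its 7489 UMIs, 74.4% lay in the 1282 mesenchymal-like cells and 15.7% in the 372 endothelial-like cells, and 1.04% of all cells held a Cxcl12 UMI. A UMI was found in 36.0% of mesenchymal-like cells (median 31883.5 UMIs per cell) and 29.6% of endothelial-like cells (median 14308.5), against 0.653% of monocyte-like cells (median 13638) and 0.422% of B-cell-like cells (median 4314). These low shares in blood cells were read as background, and free RNA in the droplets was not measured. In mesenchymal-like cells Cxcl12 was at 367, 743, 128 and 239.9 CPM in TO 2d 0h, TO 2d 4h, TO 4d 4h and TO 4d 24h, and at 106, 43.0, 18.6 and 2.00 CPM in TOE 2d 4h, TOE 2d 24h, TOE 4d 4h and TOE 4d 24h. Every TO library lay above every TOE library, and the lowest value, in TOE 4d 24h, came from 4 UMIs. The class was unevenly drawn from the libraries: TOE 2d 24h held 498 of its 1282 cells, and in an unnamed stromal sub-cluster of 265 cells 215 were from it. Cxcl12 was the one member of 7 with such a separation in mesenchymal-like cells, where 0.484% of 14257 genes tested had all TOE libraries below all TO libraries. Among blood classes the same separation was found for Cxcl12, near background, in erythroid-like cells (0.24% of 12907 genes). It was also found for Csf1 in T/NK-cell-like cells (0.725% of 9925 genes). In endothelial-like cells, in the same order, Cxcl12 was at 430.1, 249.7, 97.4 and 50.2 CPM in TO and 13.03, 194, 208 and 59.7 CPM in TOE libraries. There the groups overlapped, and the lowest value fell in TOE 2d 4h, with 6 UMIs.

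Over the 8 libraries, endothelial-like cells held more Cxcl12 than monocyte-like cells by 8.58 on the log2 scale (SD 1.47, 8 of 8 libraries), with an adjusted p of 0.0137 in an exact two-sided sign-flip test over libraries, adjusted over 14 class contrasts. Mesenchymal-like and endothelial-like cells did not pass that exact test for Cxcl12 (mean log2 difference -0.45, SD 2.78, n = 8, adjusted p = 0.656), with the mesenchymal level higher in 4 of 8 libraries, and the sign turned without TOE 4d 24h (0.17). The unadjusted p behind the values that passed, 0.00781, is the smallest that 8 libraries can give.

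**Figure D1:**
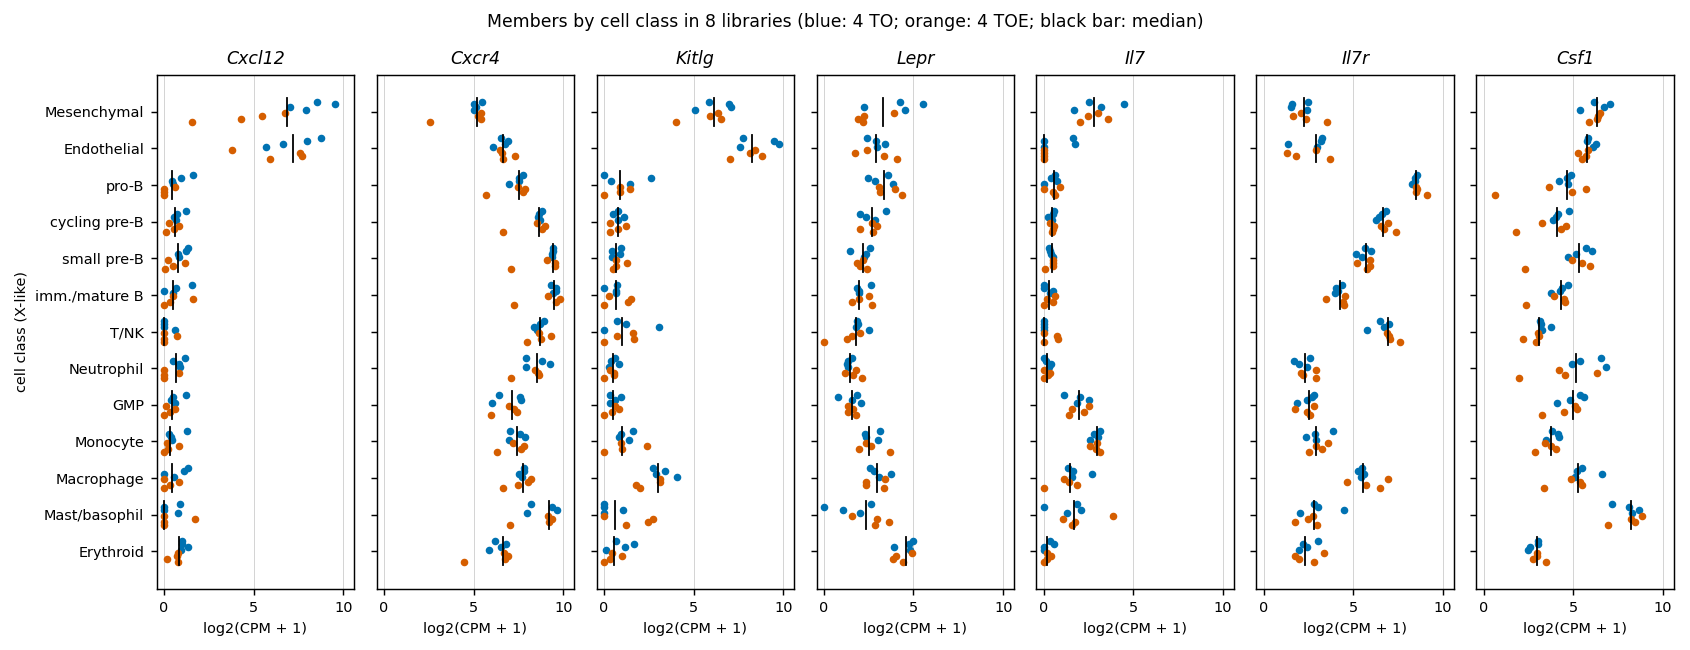
Level of each of the 7 members, as log2(CPM + 1), by cell class in each of the 8 libraries, 4 TO and 4 TOE. Cxcl12 and Kitlg stand out in mesenchymal-like and endothelial-like cells, Cxcr4 is high through the blood classes, and Il7r is highest in pro-B-like cells.

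Most Cxcl12 UMIs came from very few cells. Only 22 of 110428 cells held at least 50 Cxcl12 UMIs, and they carried 53.7% of all its UMIs, with up to 620 in 1 cell. The TO libraries held 8, 4, 2 and 4 such cells in TO 2d 0h, TO 2d 4h, TO 4d 4h and TO 4d 24h, and the TOE libraries 0, 3, 1 and 0 in TOE 2d 4h, TOE 2d 24h, TOE 4d 4h and TOE 4d 24h. The TO count of 18 was 10 without TO 2d 0h, and the TOE count of 4 was 1 without TOE 2d 24h. The libraries overlapped, since TOE 2d 24h held more of these cells than TO 4d 4h. Taking 3 cells as the floor of a count of 0, shares of up to 0.0185% in TOE 2d 4h and 0.0252% in TOE 4d 24h could have been missed. Over the 3 pairs of libraries matched in day and hour, TO held 10 of these cells and TOE 1. At the lower limit of 10 UMIs the counts were 57 in TO and 47 in TOE, of which 31 lay in TOE 2d 24h, a library without a matched TO library here, and over the 3 pairs they were 37 in TO and 16 in TOE. None of the 22 cells had a barcode that another library shared.

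**Figure D2:**
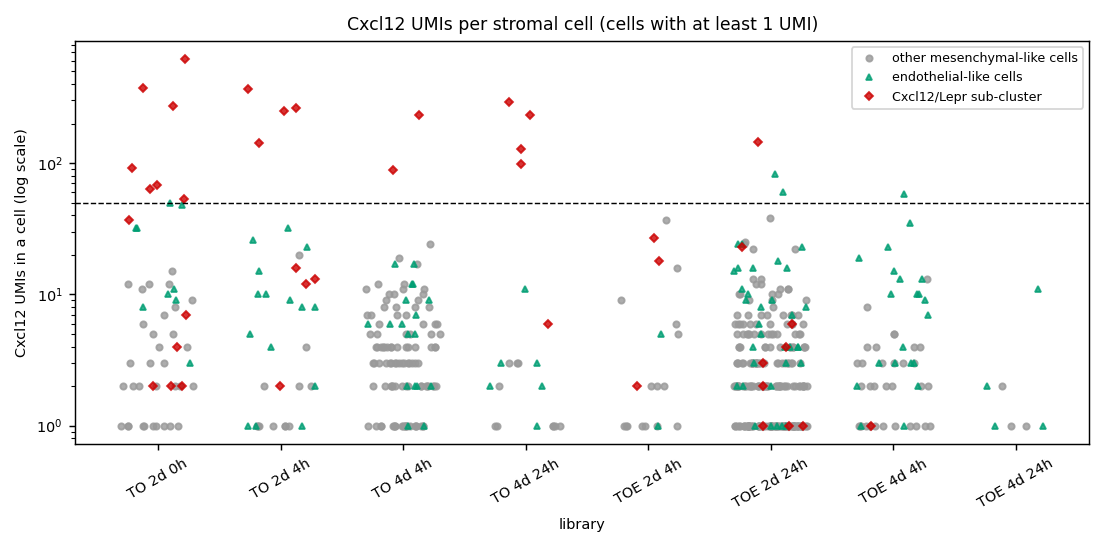
Cxcl12 UMIs in each mesenchymal-like or endothelial-like cell with at least 1 UMI (log axis), by library, with separate symbols for the Cxcl12-led sub-cluster, other mesenchymal-like cells and endothelial-like cells and a dashed line at 50 UMIs. Points above the line are found in all 4 TO libraries and in TOE 2d 24h and TOE 4d 4h, and the highest cell, at 620 UMIs, belongs to TO 2d 0h.

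The mesenchymal-like and endothelial-like cells were clustered again without the 7 members, which gave 16 sub-clusters. In 1 of them Cxcl12 was the leading gene, followed by the complement gene C6, the chemokine Cxcl14, Lepr, Crym, the collagenase Mmp13, the Wnt antagonist Sfrp1 and C7. Since that sub-cluster was singled out by its Cxcl12, its levels against other cells are a description. It held 60 cells, 31 from TO and 29 from TOE libraries, with a median of 16569 UMIs, and all were mesenchymal-like. It contained 18 of the 22 cells with at least 50 Cxcl12 UMIs, 17 from TO and 1 from TOE. The other 4 were endothelial-like. Raised in it were 10 of 12 markers of CXCL12-abundant reticular cells, but its 10 leading genes held 0 of them and 1 osteoblast marker (Mmp13), so it was left without a name. Pooled over libraries, the 60 cells held Cxcl12 at 3324 CPM, Kitlg at 340.2, Lepr at 173, Csf1 at 195 and Il7 at 43.6 CPM, and they carried 58.8% of the Cxcl12 and 50.1% of the Lepr UMIs of all 1654 stromal cells. Among the 18 cells with at least 50 Cxcl12 UMIs, Kitlg and Lepr each had a UMI in 18, Csf1 in 16, Cxcr4 in 12, Il7 in 10 and Il7r in 1.

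Within that sub-cluster TO and TOE libraries stood far apart in Cxcl12. It was at 4827, 6585, 6954 and 7054 CPM in the 14, 9, 2 and 6 cells of TO 2d 0h, TO 2d 4h, TO 4d 4h and TO 4d 24h, and at 662, 602, 33.4 and 0 CPM in the 6, 13, 3 and 7 cells of TOE 2d 4h, TOE 2d 24h, TOE 4d 4h and TOE 4d 24h, where a floor of 3 UMIs is 21.7 CPM. Every TO value was above every TOE value. Lepr ran from 194 to 506 CPM in the TO libraries and from 14.4 to 113 CPM in the TOE libraries, and Kitlg from 424 to 711 against 21.7 to 281 CPM, again with no overlap. These were 3 of the 5 members tested there, where 2.22% of 4504 genes had all TOE libraries below all TO libraries. The sub-cluster was singled out by Cxcl12, and 3733 of its 3967 Cxcl12 UMIs lay in TO cells. Lepr was also among its leading genes. Of Lepr, 183 UMIs lay in its TO cells and 24 in its TOE cells, and of Kitlg 329 and 77. The order of TO and TOE in these 3 genes is therefore a description, and the share of 2.22% is no test of it. With 2 to 14 cells behind each value, these are levels of a few cells per library.

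The summed CPM of the 12 reticular markers was 2624 in the TO cells and 995 in the TOE cells of the sub-cluster, against 733 and 641 in the rest of the stroma, with the adipokine gene Adipoq at 5 UMIs in TO and 0 in TOE and Agt at 0 in both. Among single genes, the growth-arrest ligand Gas6 was at 831 CPM in TO and 120.3 in TOE, the transcription factor Ebf3 at 183 and 29.2, and Mmp13 at 4180 and 118 CPM. The transcription factor Foxc1 (127 and 96.6 CPM) and the PDGF receptor Pdgfrb (337 and 284 CPM) were closer together. Apoe, also among the 12 reticular markers, went the other way, at 34.1 CPM in TO and 58.3 in TOE. It was below the rest of the stroma in both (182 and 192 CPM). The 12 fibroblast markers summed to 4774 CPM in TO and 9366 in TOE, and Col1a1 was at 4600 and 9341 CPM. Cells of differing state or subtype in the sub-cluster and a lower level per cell cannot be told apart here.

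**Figure D3:**
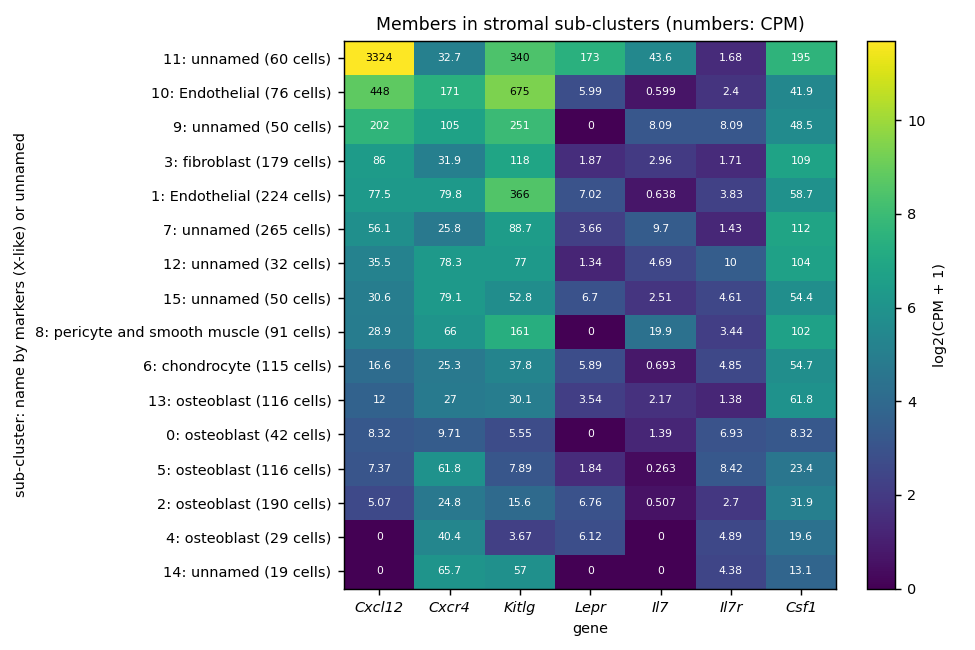
Heat map of the 7 members (columns) in 16 stromal sub-clusters (rows, ordered by Cxcl12, with cell numbers), coloured by log2(CPM + 1) and labelled with CPM pooled over libraries. The top row, of 60 cells, has the highest Cxcl12 (3324), Lepr (173), Il7 (43.6) and Csf1 (195), and Kitlg is highest in endothelial-like sub-cluster 10 (675).

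The other stroma gave a different picture. Endothelial-like cells fell mainly into a sub-cluster of 76 cells with the arterial genes Gja4, Gja5 and Sox17, with Cxcl12 at 448 and Kitlg at 675 CPM, and a sub-cluster of 224 cells led by the sinusoidal genes Plvap and Emcn, with Cxcl12 at 77.5 and Kitlg at 366 CPM. Fibroblast-like cells (179, of which 125 came from TO 4d 4h) held Cxcl12 at 86.0 CPM, pericyte- and smooth-muscle-like cells 28.9 CPM, and osteoblast-like sub-clusters from 0 to 12 CPM. Mesenchymal-like cells outside the Cxcl12-led sub-cluster held it at 32.5, 28.0, 74.7 and 5.48 CPM in TO 2d 0h, TO 2d 4h, TO 4d 4h and TO 4d 24h, and at 72.6, 35.2, 18.5 and 2.15 CPM in TOE 2d 4h, TOE 2d 24h, TOE 4d 4h and TOE 4d 24h. Outside the 60 cells, TO and TOE libraries overlapped.

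Kitlg was highest in endothelium. In endothelial-like cells it was at 218, 712, 868 and 192 CPM in TO 2d 0h, TO 2d 4h, TO 4d 4h and TO 4d 24h, and at 337, 278, 453 and 127 CPM in TOE 2d 4h, TOE 2d 24h, TOE 4d 4h and TOE 4d 24h. The 4 highest values were those of the 4 libraries taken at 4 h. In mesenchymal-like cells it was at 57.7, 125, 133 and 32.4 CPM in TO and 82.9, 58.5, 91.6 and 15.5 CPM in TOE libraries in the same order. Endothelial-like cells held more in 8 of 8 libraries, 5.33-fold on average (log2 difference of mesenchymal from endothelial cells -2.41, SD 0.37, n = 8, exact sign-flip test, adjusted p = 0.0137). A UMI was found in 65.9% of endothelial-like and 47.9% of mesenchymal-like cells, against 0.386% of B-cell-like and 1.58% of monocyte-like cells. An unnamed cluster of 2092 cells led by the plasmacytoid marker Siglech with Flt3 and Meis1 carried 18.9% of the Kitlg UMIs, at a median of 34.8 CPM over libraries (4.18 to 79.2). This cluster had 9 of 9 stem and progenitor markers raised, but more markers of another class among its 10 leading genes. Its lowest Kitlg value was that of TOE 4d 24h, and the others ran from 21.5 to 79.2 CPM.

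In both stromal classes Kitlg was higher in all 4 libraries taken at 4 h than in all 4 taken at 0 or 24 h: 82.9 to 133 against 15.5 to 58.5 CPM in mesenchymal-like cells, and 337 to 868 against 127 to 278 CPM in endothelial-like cells. Il7 had the same order in mesenchymal-like cells (7.17 to 21.6 against 2.18 to 4.86 CPM). The 2 members were 2 of 7 in mesenchymal-like cells, where 13.1% of the genes tested were so ordered, and Kitlg was 1 of 4 tested in endothelial-like cells, where 13.2% were. These shares of all genes are large, so the order by hour is not particular to the members.

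Lepr was low and spread over classes. In mesenchymal-like cells it was at 18.2, 45.9, 3.69 and 22.4 CPM in TO 2d 0h, TO 2d 4h, TO 4d 4h and TO 4d 24h, and at 14.3, 3.69, 2.80 and 3.499 CPM in TOE 2d 4h, TOE 2d 24h, TOE 4d 4h and TOE 4d 24h, with the groups overlapping through TO 4d 4h. The median over libraries was 9.02 CPM, below the 23.3 CPM of erythroid-like cells (13.2 to 29.9), which carried 24.2% of the Lepr UMIs. Pro-B-like cells had a median of 9.24 CPM, macrophage-like cells 6.70 and endothelial-like cells 6.64 CPM. Mesenchymal-like and endothelial-like cells did not pass the exact sign-flip test (mean log2 difference 0.31, SD 1.86, n = 8, adjusted p = 0.656), and the sign turned without TO 2d 4h (-0.029). Within mesenchymal-like cells Lepr followed the cells with much Cxcl12: it was at 68.4 CPM (59.0 to 78.9) in 61 cells with at least 10 Cxcl12 UMIs, 4.21 CPM (3.29 to 5.30) in 400 cells with 1 to 9 and 4.18 CPM (3.44 to 5.04) in 821 cells with none. Of the 61 cells, 29 had a Lepr UMI, among them all 18 with at least 50 Cxcl12 UMIs. In the same groups of cells Kitlg was at 231, 76.8 and 50.03 CPM, Il7 at 19.3, 5.43 and 5.21 CPM, and Csf1 at 127, 111 and 54.7 CPM. The median depth was 35005, 38938 and 27930 UMIs per cell, and the groups differed in their libraries: of the 61 cells, 18 came from TOE 2d 24h, 1 from TOE 4d 4h and 0 from TOE 4d 24h, which gave 76 of the 821 cells with none.

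Il7 was the least abundant member, with 2030 UMIs. Monocyte-like cells carried 56.5% of them at a median of 6.70 CPM over libraries (4.89 to 7.84), and mesenchymal-like cells lay near them at 4.86, 21.6, 8.22 and 2.18 CPM in TO 2d 0h, TO 2d 4h, TO 4d 4h and TO 4d 24h, and 7.17, 4.53, 11 and 3.00 CPM in TOE 2d 4h, TOE 2d 24h, TOE 4d 4h and TOE 4d 24h. Endothelial-like cells held 4 Il7 UMIs in all, with a median of 0 CPM over libraries. The prior of 0.5 UMIs thus set most endothelial values below, and the difference is not a measured fold. The mesenchymal level was higher than the endothelial level in 8 of 8 libraries (2.56 on the log2 scale, SD 1.81, n = 8, exact sign-flip test, adjusted p = 0.0137), a call that was lost with a larger prior count of 2 UMIs (1.00, adjusted p = 0.139, exact test) or when the members were not withheld from the clustering (0.53, adjusted p = 0.707, exact test). Pericyte- and smooth-muscle-like cells (19.9 CPM) came next to the 60 Cxcl12-led cells (43.6 CPM) among the stromal sub-clusters.

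Csf1 was shared between stroma and blood. Among the named classes it was highest in mast-cell/basophil-like cells, with a median of 300.2 CPM over libraries (123 to 459), followed by mesenchymal-like cells, with 70.6, 130.1, 102 and 40.8 CPM in TO 2d 0h, TO 2d 4h, TO 4d 4h and TO 4d 24h, and 87.6, 80.6, 77.6 and 57.5 CPM in TOE 2d 4h, TOE 2d 24h, TOE 4d 4h and TOE 4d 24h. TO and TOE values overlapped in both classes. Mesenchymal-like cells exceeded monocyte-like cells 6.33-fold (2.66 on the log2 scale, SD 0.43, 8 of 8 libraries) and macrophage-like cells 2.16-fold (1.11, SD 0.80, 8 of 8 libraries), each with an adjusted p of 0.0137 in the exact sign-flip test. The macrophage-like class held 24 cells in TOE 4d 24h, and the difference was 0.92 without that library. It was 4.203 on the log2 scale at Leiden resolution 2, and the stricter cell filter left no macrophage-like class. Mesenchymal-like and endothelial-like cells did not pass (0.49, SD 0.61, n = 8, adjusted p = 0.0994, exact test, 7 of 8 libraries), although they did without TO 4d 24h (0.67, adjusted p = 0.0243, exact test). An unnamed cluster of 391 cells led by Cxcl3 and Il23a, with 79.3% of its cells from TO 2d 0h, was at 466 CPM pooled over libraries. Its single libraries ran from 0 to 1035 CPM.

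**Figure D4:**
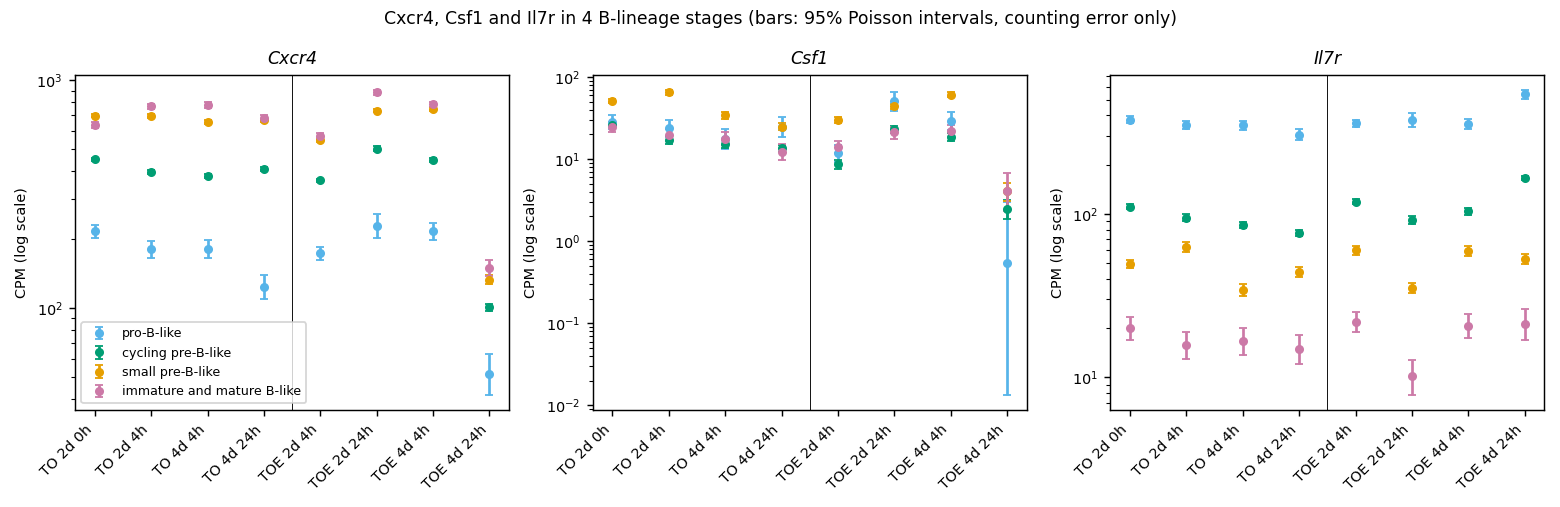
CPM of Cxcr4, Csf1 and Il7r in pro-B-like, cycling pre-B-like, small pre-B-like and immature and mature B-like cells, 1 point per library with its exact 95% Poisson interval. Cxcr4 climbs and Il7r declines from the pro-B-like to the later stages in every library, and TOE 4d 24h has the lowest Cxcr4 and Csf1 and the highest Il7r in pro-B-like cells.

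Cxcr4 was the most abundant member, with 296761 UMIs and a UMI in 68.4% of cells, and B-cell-like cells carried 65.9% of them. In 64466 B-cell-like cells it was at 545, 534, 509.7 and 511 CPM in TO 2d 0h, TO 2d 4h, TO 4d 4h and TO 4d 24h, and at 423, 665, 596 and 114 CPM in TOE 2d 4h, TOE 2d 24h, TOE 4d 4h and TOE 4d 24h. The TOE values lay on both sides of the TO values, and TOE 4d 24h was far below all others. It was lower in pro-B-like cells (124 to 229.6 CPM without TOE 4d 24h) than in cycling pre-B-like (363 to 501), small pre-B-like (544 to 746) and immature and mature B-like cells (570.4 to 884). The last 2 stages overlapped. B-cell-like cells exceeded monocyte-like cells 2.83-fold (1.502 on the log2 scale, SD 0.49, 8 of 8 libraries), and monocyte-like cells were below neutrophil-like cells (log2 difference -1.04, SD 0.23, 8 of 8 libraries), each with an adjusted p of 0.0137 in the exact sign-flip test.

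B-cell-like and neutrophil-like cells did not pass for Cxcr4 (0.47, SD 0.54, n = 8, adjusted p = 0.0729, exact test), nor did B-cell-like and T/NK-cell-like cells (0.14, SD 0.56, n = 8, adjusted p = 0.620, exact test). Without TOE 4d 24h both did, at 0.56 (adjusted p = 0.0437, exact test) and 0.32 (adjusted p = 0.0243, exact test), and the first also did without TO 4d 4h (0.57, adjusted p = 0.0486, exact test). Neutrophil-like cells were at 237, 448, 603 and 242 CPM in TO 2d 0h, TO 2d 4h, TO 4d 4h and TO 4d 24h, and at 339, 388, 402 and 132 CPM in TOE 2d 4h, TOE 2d 24h, TOE 4d 4h and TOE 4d 24h. Mesenchymal-like cells held the least Cxcr4 of the named classes, at 31.0 to 42.9 CPM in 7 libraries and 5.00 CPM in TOE 4d 24h.

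Il7r, the receptor of IL-7, was highest in pro-B-like cells. B-cell-like cells, 58.4% of all cells, carried 82.0% of its 44828 UMIs. It was at 377, 349.7, 347 and 305 CPM in pro-B-like cells of TO 2d 0h, TO 2d 4h, TO 4d 4h and TO 4d 24h, and at 357, 374, 353 and 539 CPM in TOE 2d 4h, TOE 2d 24h, TOE 4d 4h and TOE 4d 24h. Cycling pre-B-like cells ranged from 76.2 to 165 CPM, small pre-B-like cells from 34.3 to 62.7 and immature and mature B-like cells from 10.1 to 21.9 CPM, with no overlap between these stages. The order was the reverse of that of Cxcr4 up to the small pre-B-like stage. B-cell-like cells exceeded neutrophil-like cells 21.2-fold (4.41 on the log2 scale, SD 0.44, 8 of 8 libraries, adjusted p = 0.0137, exact sign-flip test). T/NK-cell-like cells held 53.9 to 190.5 CPM and did not pass against B-cell-like cells (log2 difference of B-cell-like from T/NK-cell-like cells -0.36, SD 0.45, n = 8, adjusted p = 0.0766, exact test). Macrophage-like cells held 23.7 to 121.5 CPM, with a median of 45.5 CPM over libraries.

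Tissue with and without shock waves was compared in 3 pairs of libraries matched in day and hour: the day 2 pair (4 h), the early day 4 pair (4 h) and the late day 4 pair (24 h). In mesenchymal-like cells the ratio of TOE to TO for Cxcl12 was 0.143 (0.118 to 0.171) in the day 2 pair, 0.145 (0.116 to 0.180) in the early day 4 pair and 0.00834 (0.00227 to 0.0214) in the late day 4 pair. For Kitlg it was 0.661 (0.515 to 0.844), 0.689 (0.613 to 0.774) and 0.478 (0.309 to 0.720). Lepr, with enough UMIs in 2 of the pairs, was at 0.313 (0.175 to 0.532) in the day 2 pair and 0.156 (0.0606 to 0.338) in the late day 4 pair. All 3 genes were thus lower in TOE in each of the pairs given. With 5 members tested per pair, 2, 1 and 4 were past 2-fold lower in TOE in the day 2, early day 4 and late day 4 pairs, beside 3.78%, 4.37% and 3.25% of all genes tested, and 0 members were past 2-fold higher, beside 2.23%, 3.29% and 9.95% of genes. The members' median log2 ratios were -0.59, -0.39 and -2.58, and those of all genes -0.08, 0.00 and 0.24. The late day 4 count and median rest on TOE 4d 24h. The 4 members include Cxcr4, which was lowest in that library in 11 of 11 named blood classes as well. How many of all genes were lowest there was not measured.

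The Cxcl12 and Kitlg ratios of the day 2 pair and the late day 4 pair rested on the Cxcl12-led sub-cluster. That sub-cluster was singled out by its Cxcl12, which lay mostly in TO cells, so leaving it out tends to raise the Cxcl12 ratio. Outside its 60 cells the ratio for Cxcl12 was 2.59 (1.74 to 3.92) in the day 2 pair, 0.248 (0.196 to 0.311) in the early day 4 pair and 0.392 (0.0960 to 1.202) in the late day 4 pair, and that for Kitlg was 1.32 (0.951 to 1.84), 0.703 (0.625 to 0.790) and 0.933 (0.566 to 1.51). Lepr outside them had few UMIs, with 16 in TO and 10 in TOE in the day 2 pair, 9 and 13 in the early day 4 pair, and 18 and 5 in the late day 4 pair. Cxcr4 of the late day 4 pair was at 0.160 (0.0747 to 0.308) with the 60 cells and 0.137 (0.0577 to 0.282) without them. In the early day 4 pair, where TO held 2 and TOE 3 cells of the sub-cluster, Cxcl12 stayed lower in TOE without them, but the remaining cells lay in different sub-clusters. The fibroblast-like sub-cluster held 125 cells and 400 Cxcl12 UMIs in TO 4d 4h, where all mesenchymal-like cells outside the 60 held 442 UMIs, against 26 cells and 41 UMIs in TOE 4d 4h, at 91.2 (82.5 to 100.6) and 47.3 (34.0 to 64.2) CPM. In mesenchymal-like cells the summed B-cell list ran from 874 to 1687 CPM. It includes Ebf1, which stroma outside the 60 cells held at 1063 CPM in TO and 794 in TOE, so the sum cannot show B-cell RNA. Of the other cells' markers, the endothelial list ran from 13.1 to 110 CPM. The erythroid list ran from 506 to 2904 CPM in 7 libraries and was at 23.0 CPM in TOE 4d 24h, where Slc4a1 and Epb42 were at 0. The neutrophil list ran from 1636 to 2952 CPM and was at 4073 CPM in TOE 4d 24h. The part of other cells' RNA in the ratios was not tested.

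**Figure D5:**
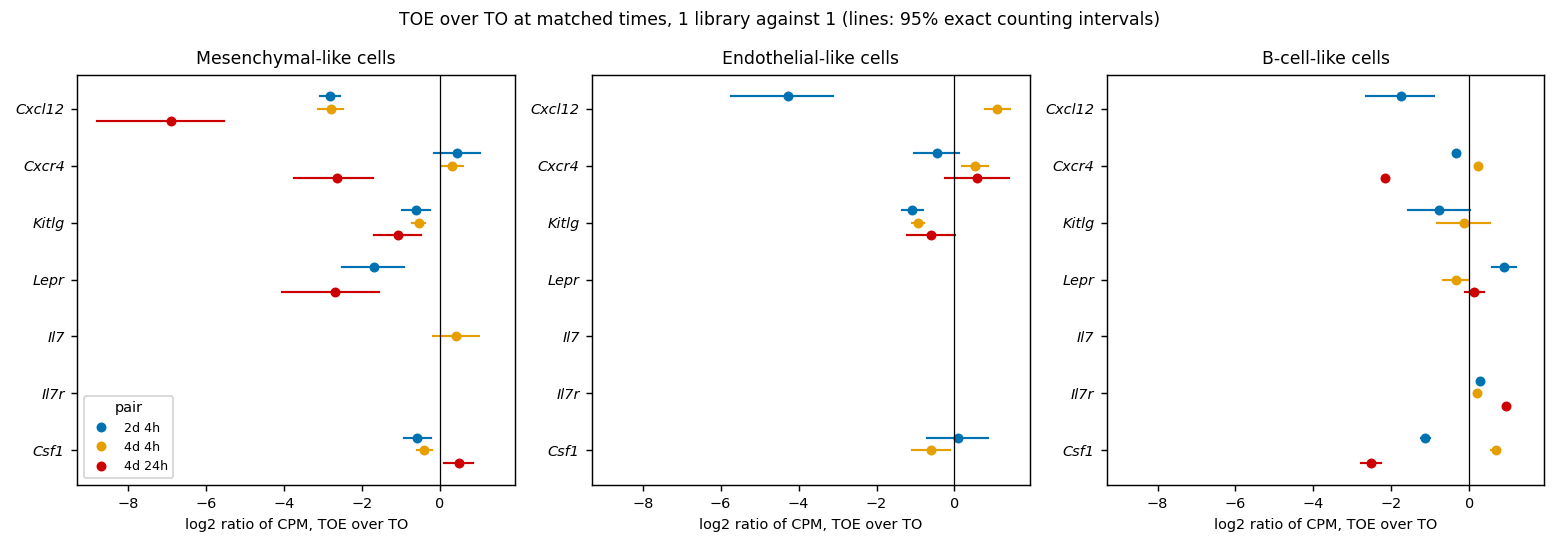
Log2 ratio of TOE to TO for each member in mesenchymal-like, endothelial-like and B-cell-like cells in the day 2, early day 4 and late day 4 pairs, with exact 95% intervals and a line at 0, for members with at least 50 UMIs over a pair. Cxcl12 lies below 0 in mesenchymal-like cells at all 3 times, Kitlg lies below 0 in both stromal classes, and Cxcr4 of B-cell-like cells is far below 0 only in the late day 4 pair.

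In endothelial-like cells Kitlg had TOE to TO ratios of 0.473 (0.391 to 0.569) in the day 2 pair, 0.522 (0.470 to 0.580) in the early day 4 pair and 0.665 (0.428 to 1.01) in the late day 4 pair, the last with 1 inside its interval. Cxcl12 was at 0.0522 (0.0189 to 0.116) in the day 2 pair and 2.13 (1.71 to 2.67) in the early day 4 pair, in opposite directions. The endothelial sub-clusters differed in number between these libraries. The sub-cluster with arterial genes held 8 TO cells and 1 TOE cell in the day 2 pair, with Cxcl12 at 452 and 358 CPM, and 14 TO cells and 22 TOE cells in the early day 4 pair, at 203 and 347 CPM. In the sub-cluster with sinusoidal genes Cxcl12 was at 109.6 CPM (79.6 to 147) in 22 cells of TO 2d 4h and 2.24 CPM (0.0568 to 12.5) in 25 cells of TOE 2d 4h, and at 54.7 and 37.3 CPM in the early day 4 pair. Pooled over libraries, TO and TOE were at 455 and 443 CPM in the first and at 76.2 and 78.3 CPM in the second. Past 2-fold lower in TOE were 4.01%, 1.69% and 15.7% of all genes tested in the 3 pairs, and past 2-fold higher 3.76%, 2.95% and 4.75%. Csf1 in mesenchymal-like cells was at 0.673, 0.763 and 1.41 and did not keep 1 direction.

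In B-cell-like cells Cxcr4 had ratios of 0.791 (0.777 to 0.805) in the day 2 pair, 1.17 (1.15 to 1.19) in the early day 4 pair and 0.222 (0.216 to 0.229) in the late day 4 pair. Csf1 followed the same order, at 0.458, 1.61 and 0.174. Il7r was at 1.21 (1.16 to 1.26), 1.16 (1.10 to 1.21) and 1.92 (1.84 to 2.00), above 1 in each pair, but the stages differ: in pro-B-like cells it was at 1.02 (0.949 to 1.10), 1.02 (0.925 to 1.12) and 1.77 (1.61 to 1.95), in cycling pre-B-like cells at 1.25, 1.21 and 2.17, in small pre-B-like cells, the most numerous stage, at 0.952 (0.870 to 1.04), 1.73 (1.54 to 1.93) and 1.201 (1.09 to 1.33), and in immature and mature B-like cells at 1.40, 1.23 and 1.43. Past 2-fold lower in TOE were 4.03%, 0.616% and 6.46% of all genes tested in B-cell-like cells, and past 2-fold higher 5.48%, 1.5% and 16.1%.

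Of the 11 named blood classes, counting the 4 B-cell stages singly, Cxcr4 was lowest in TOE 4d 24h in 11 and Csf1 in 9. Cxcl12 and Kitlg were lowest there without a tie in 4 each, Il7 in 2, Lepr in 1 and Il7r in 0. Ties at 0 CPM were counted for another library. The counts of Cxcl12, Kitlg, Il7 and Lepr can thus be too low and cannot be set against those of Cxcr4 and Csf1. The share of all genes lowest in that library was not measured. The exceptions for Csf1 were erythroid-like cells, where it was highest there (9.98 CPM), and T/NK-cell-like cells, where it was lowest in TOE 4d 4h (3.63 CPM). Cxcr4 in this library was at 51.5 CPM in pro-B-like, 101 in cycling pre-B-like, 133 in small pre-B-like and 149.7 CPM in immature and mature B-like cells, and Csf1 at 0.536, 2.46, 4.03 and 4.12 CPM in the same stages. In the other 7 libraries Csf1 ran from 11.7 to 50.8, from 8.60 to 26.4, from 24.9 to 65.4 and from 12.3 to 24.7 CPM. Both genes lay below the lowest other library divided by 2 in all 4 stages, beside 2.17%, 2.59%, 2.7% and 3.56% of genes tested in pro-B-like, cycling pre-B-like, small pre-B-like and immature and mature B-like cells. The same held for Cxcl12, Cxcr4 and Kitlg in mesenchymal-like cells (2.61% of genes), for Csf1 in neutrophil-like cells (2.88 CPM against 17.3 to 110.4, 4.07% of genes) and for Cxcr4 in erythroid-like cells (21.4 against 56.6 to 120.3 CPM, 3.76% of genes). It also held for Cxcl12, near background, in small and cycling pre-B-like cells and for Cxcl12 and Kitlg in monocyte-like cells (4.44% of genes). It held for 0 of 4 members tested in endothelial-like cells (6.66% of genes) and 0 of 3 in T/NK-cell-like cells (5.57% of genes). In neutrophil-like cells Cxcr4 was lowest there at 132 CPM against 237 to 603.

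Immediate-early genes are known to respond quickly to handling. A list of 12 of them, chosen after the data were seen, summed to 2183 CPM in small pre-B-like cells of TOE 4d 24h against 2611 to 6201 CPM in the other libraries. In pro-B-like cells the sum was 1447 against 1579 to 3589 CPM, in cycling pre-B-like cells 1138 against 1722 to 3949 CPM, and in immature and mature B-like cells 2655 against 3476 to 5657 CPM. In mesenchymal-like cells (8551 CPM) and neutrophil-like cells (4485 CPM) TOE 4d 24h lay within the range of the other libraries. The part of these genes in the low Cxcr4 and Csf1 was not tested, and with 1 library the shock wave at day 4 and a property of the library cannot be told apart.

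Around the members, 67 of 68 listed genes of the CXCL12 axis, of the KIT, CSF1 and IL-7 receptor side, of other niche factors and of adhesion were in the tables. In mesenchymal-like cells 36, 46 and 31 of them were tested in the day 2, early day 4 and late day 4 pairs. Past 2-fold lower in TOE were 4, 8 and 6, beside 3.78%, 4.37% and 3.25% of all genes tested, and past 2-fold higher 4, 4 and 3, beside 2.23%, 3.29% and 9.95%. Their median log2 ratios were 0.01, -0.24 and -0.09, beside -0.08, 0.00 and 0.24 for all genes. The adhesion molecule Vcam1, by which stroma holds haematopoietic cells, was at ratios of 0.384 (0.237 to 0.604), 0.291 (0.208 to 0.399) and 0.0459 (0.00545 to 0.172), lower in TOE in all 3 pairs. Outside the 60 Cxcl12-led cells it was at 1.604 (0.811 to 3.25), 0.309 (0.220 to 0.426) and 0.370 (0.0389 to 1.79), so that only the early day 4 pair kept an interval below 1. In the day 2 pair Ebf3 (0.340), Angpt1 (0.386) and the osteoclast ligand Tnfsf11 (0.409) were also below, whereas the interleukin-6 family ligands Lif (3.82) and Il6 (2.36), the CXCL12 scavenger receptor Ackr3 (3.66) and the Wnt ligand Wnt5a (2.86) were above. Outside the 60 cells Ebf3 was at 0.591 (0.314 to 1.08) and Il6 at 1.96 (1.40 to 2.76), both no longer past 2-fold. Lif was at 2.49 (1.37 to 4.71) there. In the early day 4 pair the growth factors Fgf7 (0.327) and Igf1 (0.337), the receptor Il6r (0.391) and Il6 (0.444) were below, and Bmp4 (5.26), Csf1r (2.85), Il2rg (2.32) and the bone matrix gene Spp1 (2.16) above. Csf1r rested on 23 UMIs in TO and 55 in TOE, and Il2rg on 39 and 76. The part of other cells' RNA in them was not tested. Igf1 was among the 10 leading genes of the fibroblast-like sub-cluster, with its 125 TO cells and 26 TOE cells in this pair, whose part in the ratios was not tested, and its ratio was the same without the Cxcl12-led cells, at 0.337 (0.320 to 0.354). Il6 thus lay on opposite sides at the 2 times. In the late day 4 pair Cd69 (0.0259), Bmp4 (0.107), Ptk2b (0.407) and Vegfa (0.485) were below, and the growth factor Ptn (45.8), Wnt5a (4.57) and the CXCL12-cleaving peptidase Dpp4 (3.03) above. Cd69 rested on 62 UMIs in TO and 1 in TOE, and the part of other cells' RNA in it was not tested either. Outside the 60 cells Bmp4 was at 0.185 (0.0651 to 0.430) and Ptn at 96.7 (52.2 to 203). Vegfa was at 0.531 (0.417 to 0.672) there, no longer past 2-fold.

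The genes most like each member over 103 profiles of class by library were found by Pearson's r of log2(CPM + 1) among 14575 genes, as a description of profiles that share libraries. Cxcl12 was closest to Sgce (0.93), Ebf3 (0.92) and Foxc1 (0.92), and Kitlg to Epn2 (0.94), Srgap1 (0.94) and LOC100361913 (0.94). Cxcr4 was closest to Gpr132 (0.87), Lrrc8d (0.84) and Ptk2b (0.84), and Il7r to Lef1 (0.86), LOC103691708 (0.83) and Cux1 (0.82). The best matches of Il7 (Sec61b, 0.79), Lepr (Prdx2, 0.70) and Csf1 (Nucb2, 0.70) were weaker.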

How the data were processed

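Single-cell RNA of the tibial osteotomy site was counted by the authors with Cell Ranger 9.0.0, and the deposited values are raw counts of UMIs per gene and barcode, not normalized. The submitters' processing notes also name R 4.0.3, Seurat and the builds GRCh38 and mRatBN7.2, with no role or order. Total counts per library set the precision of each value. The 7 members, the gene lists and the comparisons were chosen with earlier results of these data known.

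The cell filter required 200 detected genes and allowed 20% mitochondrial UMIs, and doublets were removed at a Scrublet score of 0.25 (expected rate 8%), chosen after the scores were seen. Counts scaled to 10000 UMIs per cell were log transformed, and 2000 variable genes without the 7 members entered 30 principal components, a graph of 15 neighbours and Leiden clustering at resolution 1 (scanpy 1.11.5, scikit-learn 1.9.0, igraph 0.11.9, pandas 2.3.3, numpy 2.4.6, matplotlib 3.10.9, scipy 1.17.1, python 3.11.15), with no integration of libraries. Stromal cells were clustered again with 20 components. A cluster was named where at least 3 markers were raised by 1 on the log2 scale and left unnamed where its median UMI count was under its library's median divided by 3, where 75% of its cells came from 1 library, or where another class had more markers among its 10 leading genes. These naming rules were adjusted after the clusters were seen.

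Raw counts were summed per class and library. Classes were compared over 8 libraries by an exact two-sided sign-flip test of log2 CPM differences (prior of 0.5 UMIs, at least 10 cells per class and library), with Benjamini-Hochberg adjustment over 14 contrasts. TOE and TO were compared, without a test, by the ratio of CPM with its exact conditional 95% interval where a gene reached 50 UMIs in both libraries together. The background is the share of all genes so tested that passed 2-fold or did not overlap. The computations were tested on simulated data. Named genes were the members, the markers, up to 5 pathway genes with the largest rise and 5 with the largest fall past 2-fold in mesenchymal-like cells, and the 3 genes most correlated with each member (at least 1000 UMIs, profiles of at least 20 cells). The alternatives were another resolution (0.5 or 2), a stricter filter (500 genes, 10% mitochondrial UMIs), doublets kept, members not withheld from clustering, a prior of 2 UMIs, CPM without ribosomal protein, mitochondrial, haemoglobin and immunoglobulin genes, cells thinned to 1000 UMIs, and each library left out. The limits for Cxcl12-rich cells, the cells outside the Cxcl12-led sub-cluster and the list of immediate-early genes were added after seeing the data.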

Additional observations from a re-analysis of the deposited data

Results flagged for a closer look

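Some TOE to TO ratios lay on opposite sides of 1 in different pairs of libraries, with intervals that excluded 1. The differences between pairs were not tested, since each pair holds 1 library per arm. Cxcl12 in endothelial-like cells was at 0.0522 (0.0189 to 0.116) in the day 2 pair and 2.13 (1.71 to 2.67) in the early day 4 pair. The sub-cluster with arterial genes held 8 TO cells and 1 TOE cell in the day 2 pair and 14 and 22 in the early day 4 pair, and in the sub-cluster with sinusoidal genes, with 22 TO and 25 TOE cells in the day 2 pair, Cxcl12 was at 109.6 and 2.24 CPM. Csf1 in mesenchymal-like cells was at 0.673 (0.528 to 0.855) in the day 2 pair and 0.763 (0.670 to 0.868) in the early day 4 pair against 1.41 (1.09 to 1.82) in the late day 4 pair. In B-cell-like cells Csf1 was at 1.61 (1.48 to 1.74) in the early day 4 pair against 0.458 (0.423 to 0.496) in the day 2 pair and 0.174 (0.145 to 0.208) in the late day 4 pair. Cxcr4 in B-cell-like cells was at 1.17 (1.15 to 1.19) in the early day 4 pair against 0.791 (0.777 to 0.805) in the day 2 pair and 0.222 (0.216 to 0.229) in the late day 4 pair.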

How the results depend on the processing

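Each result that answers a comparison was set against its value under each alternative. Of these values, 254 were unchanged, 15 moved, 6 passed the threshold, 2 lost it and 4 reversed. For tested contrasts, unchanged means the same direction and side of the threshold. For ratios without a test it means a value inside the main counting interval, and for counts a close count. No fit with a replicate block was run, since each condition is 1 library, and the 3 pairs matched in day and hour were compared by ratios without a test. Outside the Cxcl12-led sub-cluster the mesenchymal Cxcl12 ratios of TOE to TO were 2.59 in the day 2 pair, 0.248 in the early day 4 pair and 0.392 in the late day 4 pair, and Kitlg in the day 2 pair was 1.32. With cells thinned to 1000 UMIs, the ratio of the shares of mesenchymal-like cells with a Cxcl12 UMI was 0.633, 0.232 and 0.0454 in the day 2, early day 4 and late day 4 pairs, and for Cxcr4 in B-cell-like cells it was 1.09 in the early day 4 pair and 0.259 in the late day 4 pair. Without ribosomal protein, mitochondrial, haemoglobin and immunoglobulin genes in the CPM, Cxcr4 in B-cell-like cells was at 0.777 in the day 2 pair and 0.214 in the late day 4 pair. With the stricter filter it was at 0.819 in the day 2 pair, and Cxcr4 in mesenchymal-like cells in the early day 4 pair was at 0.996. Cxcr4 of B-cell-like over neutrophil-like cells passed the exact test at Leiden resolution 0.5 (0.75, adjusted p = 0.0365) and with doublets kept (0.65, adjusted p = 0.0486). Il7 of mesenchymal-like over endothelial-like cells did not pass the exact test with the members in the clustering (0.53, adjusted p = 0.707) or a prior of 2 UMIs (1.00, adjusted p = 0.139), and Lepr there was at -0.025 with that prior. Csf1 of mesenchymal-like over macrophage-like cells ran from 0.92 (without TOE 4d 24h) to 4.203 (Leiden resolution 2) and had no value under the stricter filter, which left no macrophage-like class. Cells with at least 10 Cxcl12 UMIs numbered 57 in TO and 47 in TOE (16 without TOE 2d 24h), and those with at least 20 per 10000 UMIs 20 in TO and 8 in TOE. The cause of these shifts was not tested. With each library left out, the range was 10 to 18 for Cxcl12-rich cells in TO (10 without TO 2d 0h) and 1 to 4 in TOE (1 without TOE 2d 24h), and on the log2 scale -0.93 to 0.17 for Cxcl12 and -0.029 to 0.68 for Lepr of mesenchymal-like over endothelial-like cells, 0.38 to 0.67 for Csf1 of the same, 0.36 to 0.57 for Cxcr4 of B-cell-like over neutrophil-like cells and 0.069 to 0.32 over T/NK-cell-like cells. Cxcl12 reversed without TOE 4d 24h (0.17) and Lepr without TO 2d 4h (-0.029). Depth limits Il7 and Lepr most, with 2030 and 5519 UMIs in all.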

Other observations

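Mast-cell/basophil-like cells held Cxcr4 at 290.1, 655, 809.9 and 255 CPM in TO 2d 0h, TO 2d 4h, TO 4d 4h and TO 4d 24h, and at 566, 661, 589 and 132 CPM in TOE 2d 4h, TOE 2d 24h, TOE 4d 4h and TOE 4d 24h. The ratios of TOE to TO were 0.863 (0.729 to 1.02), 0.727 (0.629 to 0.839) and 0.518 (0.432 to 0.620) in the day 2, early day 4 and late day 4 pairs. Csf1 in the same cells was at 1.65 (1.32 to 2.08), 0.857 (0.705 to 1.04) and 0.397 (0.332 to 0.475).

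Macrophage-like cells held Il7r at ratios of 3.24 (2.59 to 4.08) in the day 2 pair, 1.07 (0.904 to 1.26) in the early day 4 pair and 2.14 (1.35 to 3.30) in the late day 4 pair, the last from 24 cells of TOE 4d 24h. In monocyte-like cells Il7r was at 1.78 (1.46 to 2.18), 2.09 (1.62 to 2.72) and 0.722 (0.506 to 1.02). In T/NK-cell-like cells it was at 0.899 (0.677 to 1.19), 1.25 (0.965 to 1.64) and 3.53 (2.51 to 4.93). No class of the 3 was above 1 with an interval excluding 1 in every pair.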
